A study of Saccharomyces cerevisiae with 18 samples.

Results

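The purine genes described here are 10 genes of *Saccharomyces cerevisiae*, *ADE4*, *ADE8*, *ADE6*, *ADE2*, *ADE1*, *ADE13*, *ADE17* and *ADE12* of purine synthesis and *APT1* and *AAH1* of adenine salvage. They were chosen by name, with earlier results of these data known. A gene was taken where a probe set of the array carried its symbol alone. All 10 had such a probe set, 1 each, among 6504 probe sets for 5656 genes. Total RNA from 6 strains was hybridized to 18 Affymetrix Yeast Genome S98 arrays, 3 biological replicates per strain, to ask how an imbalance between the 3-methyladenine DNA glycosylase Mag and the AP endonuclease Apn1 changes gene expression. Mag removes damaged bases and leaves abasic sites, and Apn1 cuts the DNA at those sites. The values are signals from robust multi-array average (RMA) processing, on the log2 scale, so that a difference of 1 is a doubling. A level can be compared between arrays for 1 gene, but not between genes.

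All strains derive from BGY111, a *MATa* strain with *his3*, *leu2*, *ura3*, *trp1* and *can1* mutations that uses galactose, and were grown without added damaging agent in galactose medium lacking uracil, to mid-log phase. All carry a pYES plasmid. Δ*apn1*/p*MAG*/p*APN1* holds the disruption *apn1-1::HIS3*, the *MAG* plasmid pYES-MAG and the *APN1* plasmid pYepAPN1-2A, and is called the null with both plasmids. Δ*apn1*/p*APN1* holds the disruption, pYepAPN1-2A and the empty vector. Δ*apn1*/p*MAG* holds the disruption and pYES-MAG, and Δ*apn1* the disruption and the empty vector. WT/p*MAG* is the parent with pYES-MAG, and wild type (WT) is the parent with the empty vector. In pYES-MAG the glycosylase is switched on by galactose, so its level depends on the carbon source and the plasmid. Every Δ*apn1* strain also carries *HIS3*, so that the effects of the deletion and of this marker cannot be told apart. *LEU2* read 9.005 to 9.85 in Δ*apn1*/p*APN1*, 5.94, 9.95 and 9.15 in the null with both plasmids and 4.05 to 6.73 in the strains without p*APN1*, so that effects of p*APN1* cannot be told apart from those of a *LEU2* marker.

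The de novo route builds the purine ring stepwise on phosphoribosyl pyrophosphate (PRPP) up to inosine monophosphate (IMP), from which AMP and GMP are made. In yeast most of its genes are transcribed by Bas1 with Pho2, a pair of factors whose interaction is favoured by the pathway intermediates SAICAR and AICAR and is low when adenine is plentiful. Histidine synthesis releases AICAR, and serine and glycine metabolism supplies the one-carbon units that the route consumes, and several genes of both pathways answer to the same factors. Salvage takes a shorter course, in which Apt1 joins adenine to PRPP and Aah1 converts adenine to hypoxanthine.

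The arrays had medians between 1.63 and 1.72 and correlated with each other at 0.916 to 0.991. *MAG1* signals were 1.48 to 6.91 in WT/p*MAG*, 1.82 to 7.17 in Δ*apn1*/p*MAG*, 1.82 to 3.80 in the null with both plasmids and 0.89 to 1.41 in the strains without p*MAG*, so that arrays of 1 strain differed widely. The *APN1* signal was 7.27 to 7.96 in Δ*apn1*/p*APN1* and 7.26 and 7.48 on 2 arrays of the null with both plasmids, but 4.57 on its replicate 1. It was 2.81 to 3.15 in Δ*apn1* and 1.14 to 1.88 in wild type, so the probe set does not show the disruption as a loss of signal. On replicate 1 of Δ*apn1*/p*MAG* the 5′ probe set of *ACT1* read 2.45 and the 3′ probe set 10.22. The arrays also fell into 7 with a high and 11 with a low average of 76 non-coding RNA probe sets (small nuclear, small nucleolar and ribosomal), and all 6 arrays of the p*APN1* strains lay in the low group. Free-text labels of replicates 2 and 3 of Δ*apn1* name other *apn* genes, but those of their source name *apn1*.

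p*MAG* was tested as the mean of 3 differences that share no array, WT/p*MAG* minus wild type, Δ*apn1*/p*MAG* minus Δ*apn1*, and the null with both plasmids minus Δ*apn1*/p*APN1*. With p*MAG*, *ADE12*, *ADE4* and *ADE17* rose and *APT1* fell, although *ADE4* was not shown to be above background. *ADE12* encodes adenylosuccinate synthase, which starts the branch from IMP to AMP, *ADE4* the amidotransferase of the opening step of the route, and *ADE17* the enzyme that closes the ring to IMP. Together 3 of the 10 genes rose at an adjusted p under 0.05, where 0.830% of all probe sets did, and 1 fell, where 0.446% did. The test was limma with Benjamini-Hochberg adjustment over all 6504 probe sets. The mean difference was above 0 for all 8 *ADE* genes of the list, as it was for 50.5% of probe sets. The list was drawn up with earlier results of these data known. Of 2 further *ADE* genes measured, *ADE3* differed by 0.47 (SE 0.13) and *ADE16* by -0.13 (SE 0.15). The median over the 10 genes was 0.54, against 0.0017 over all probe sets. At an unadjusted p under 0.05 and at least 1.5-fold, the thresholds of the study's methods, 5 were higher (*ADE2*, *ADE1*, *ADE13*, *ADE17* and *ADE12*), against 1.89% of all probe sets, and 1 lower (*APT1*), against 1.58%.

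**Figure D1:**
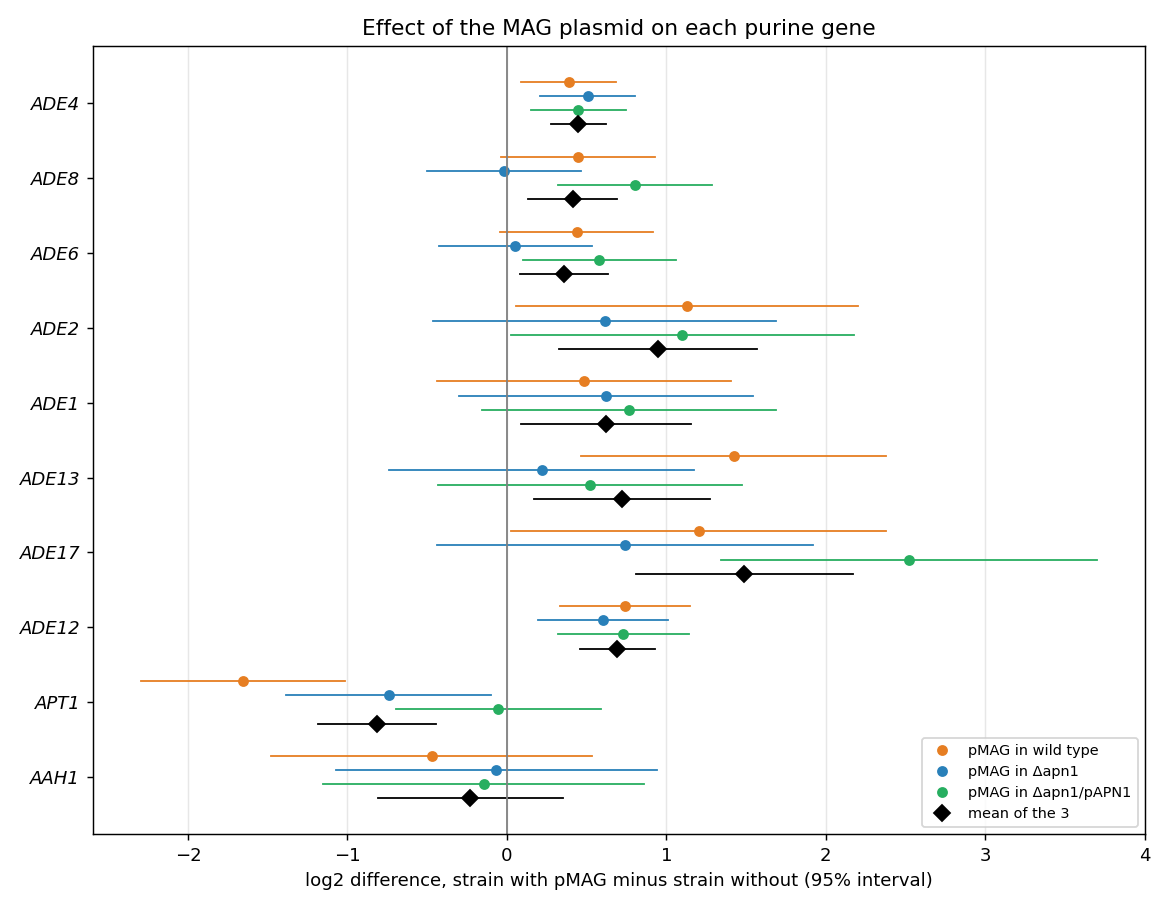
Effect of p*MAG* on each gene as a log2 difference with its 95% interval (x axis), in wild type, in Δ*apn1*, in Δ*apn1*/p*APN1* and as the mean of the 3 (black diamonds), with genes in the order of the pathway (y axis). The mean lies above 0 for all 8 *ADE* genes shown and at -0.82 for *APT1*, while the interval of *AAH1* spans 0.

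*ADE12* had the smallest adjusted p of the 10 genes. It read 6.05, 5.81 and 5.23 in WT/p*MAG*, against 4.81, 5.06 and 5.01 in wild type. In Δ*apn1*/p*MAG* it read 5.41, 5.48 and 5.32, against 4.998, 4.79 and 4.60 in Δ*apn1*. In the null with both plasmids it read 5.26, 5.62 and 5.08, against 4.45, 4.56 and 4.76 in Δ*apn1*/p*APN1*. In each of these pairs every array with p*MAG* lay above every array without it. The share of all probe sets separated in this way in every pair was not counted. The mean difference was 0.69 ± 0.11 (SE; 95% interval 0.46 to 0.93; adjusted p = 0.00446), which is 1.61-fold. Leaving out any 1 array gave 0.63 to 0.77 for *ADE12*, and the call remained each time.

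*ADE4* showed the same separation at a far dimmer signal. It read 1.97, 1.64 and 1.42 in WT/p*MAG*, against 1.32, 1.32 and 1.23 in wild type. It read 1.68, 1.60 and 1.68 in Δ*apn1*/p*MAG*, against 1.13, 1.20 and 1.09 in Δ*apn1*. It read 1.66, 1.76 and 1.32 in the null with both plasmids, against 1.21, 1.16 and 1.03 in Δ*apn1*/p*APN1*. The groups did not overlap in any pair. The mean difference was 0.45 ± 0.081 (SE; 95% interval 0.28 to 0.62; adjusted p = 0.0106), under the 1.5-fold of the study's methods. These signals lie around or below the array medians, at the 31.7 percentile of probe sets by mean, and the files give no detection call, so that *ADE4* was not shown to be above background.

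*ADE17*, whose product AICAR transformylase and IMP cyclohydrolase carries out the last steps to IMP, moved over the widest range. It read 6.78, 6.38 and 5.30 in WT/p*MAG*, against 5.01, 4.84 and 5.01 in wild type, with no overlap. In Δ*apn1*/p*MAG* it read 4.64, 4.96 and 5.59, against 3.84, 4.65 and 4.47 in Δ*apn1*, where the lowest p*MAG* array overlapped. In the null with both plasmids it read 4.86, 7.21 and 4.40, against 2.78, 2.88 and 3.23 in Δ*apn1*/p*APN1*, again with no overlap. The mean difference was 1.49 ± 0.32 (SE; 95% interval 0.81 to 2.17; adjusted p = 0.0325), or 2.81-fold. Its size stayed between 1.20 and 1.67 when any 1 array was left out, but the adjusted p exceeded 0.05 without replicate 1 or 2 of WT/p*MAG*, replicate 3 of Δ*apn1*/p*MAG*, any array of Δ*apn1* or Δ*apn1*/p*APN1*, or replicate 2 or 3 of wild type. *ADE17* has a close copy, *ADE16*, which carries out the same reactions. *ADE16* had a mean p*MAG* difference of -0.13 (SE 0.15), and it did not pass the test in any comparison.

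*APT1*, the adenine phosphoribosyltransferase, moved the other way. It read 3.87, 4.63 and 5.15 in WT/p*MAG*, against 5.98, 6.39 and 6.25 in wild type. It read 5.55, 5.96 and 5.16 in Δ*apn1*/p*MAG*, against 6.53, 6.13 and 6.25 in Δ*apn1*. Neither pair overlapped. In the null with both plasmids it read 6.29, 5.31 and 5.52, on both sides of the 5.84, 5.67 and 5.77 in Δ*apn1*/p*APN1*. The mean difference was -0.82 ± 0.17 (SE; 95% interval -1.19 to -0.45; adjusted p = 0.0325). For *APT1* the adjusted p exceeded 0.05 without any array of Δ*apn1* or Δ*apn1*/p*APN1*, without replicate 3 of Δ*apn1*/p*MAG* or of the null with both plasmids, or without replicate 2 or 3 of wild type, with differences of -0.92 to -0.70 over all arrays left out.

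The other *ADE* genes had mean p*MAG* differences above 0 that did not pass the adjusted test. They were 0.95 (SE 0.29, adjusted p = 0.127) for *ADE2*, the AIR carboxylase, and 0.72 (SE 0.26, adjusted p = 0.193) for *ADE13*, the adenylosuccinate lyase that acts on the way to IMP and again from IMP to AMP. For *ADE1*, the SAICAR synthetase, the difference was 0.62 (SE 0.25, adjusted p = 0.238). For *ADE8*, the GAR transformylase, it was 0.41 (SE 0.13, adjusted p = 0.145), and for *ADE6*, the FGAM synthase, 0.36 (SE 0.13, adjusted p = 0.197). All 5 had unadjusted p-values under 0.05, as did 9 of the 10 genes and 993 of 6504 probe sets. *AAH1*, the adenine deaminase, differed by -0.23, with a 95% interval of -0.81 to 0.35 that leaves room for a change in either direction. Its arrays spread from 1.16 to 3.83 within the null with both plasmids alone.

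On some arrays purine genes were high while the *MAG1* signal was low. Among the p*MAG* arrays, *MAG1* read 6.14, 6.91 and 7.17 on those of the high non-coding RNA group. It read 1.48 to 3.80 on those of the low group. The *MAG1* signal thus cannot be told apart from the array group, and a low reading was not shown to be low Mag. Replicate 2 of WT/p*MAG* had a *MAG1* signal of 1.48, near the strains without the plasmid, while *ADE2* read 6.91 and *ADE13* 7.25 on it, the highest of all 18 arrays. In the null with both plasmids, replicate 2 had *MAG1* at 2.83 and the highest *ADE17* signal of the series, 7.21, while replicate 1 had *MAG1* at 3.80 and *ADE17* at 4.86. *HUG1*, a gene induced by DNA damage, read 5.54 to 6.31 in WT/p*MAG*, against 1.03 to 1.22 in wild type, so all 3 of these p*MAG* arrays stood apart by it. In the null with both plasmids *HUG1* read 6.75 on replicate 1 and 2.51 on replicate 2, which was the lowest of the p*MAG* arrays for *HUG1* and the highest for *ADE17*.

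The array groups bear on these calls. With the group of arrays as a block the 4 calls stayed, at adjusted p-values of 0.00674 for *ADE12*, 0.0152 for *ADE4*, 0.0373 for *ADE17* and 0.0339 for *APT1*. Within the 11 arrays of the low group the differences were 0.71 for *ADE12*, 0.42 for *ADE4*, 1.78 for *ADE17* and -0.79 for *APT1*, with adjusted p-values of 0.116, 0.227, 0.266 and 0.266. By limma 0 of all 6504 probe sets passed the adjusted test there, while 8 of the 10 genes and 791 probe sets had an unadjusted p under 0.05. WT/p*MAG*, Δ*apn1* and wild type have 1 array each in that group, which is assumed to vary like the other strains. The mean could not be formed within the high group, which holds no p*APN1* array. Without replicate 1 of Δ*apn1*/p*MAG* and replicate 1 of the null with both plasmids, the arrays with low *ACT1* 5′ and low *APN1* signal, the adjusted p-values were 0.0171 for *ADE12*, 0.0444 for *ADE4*, 0.0347 for *ADE17* and 0.0210 for *APT1*.

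**Figure D2:**
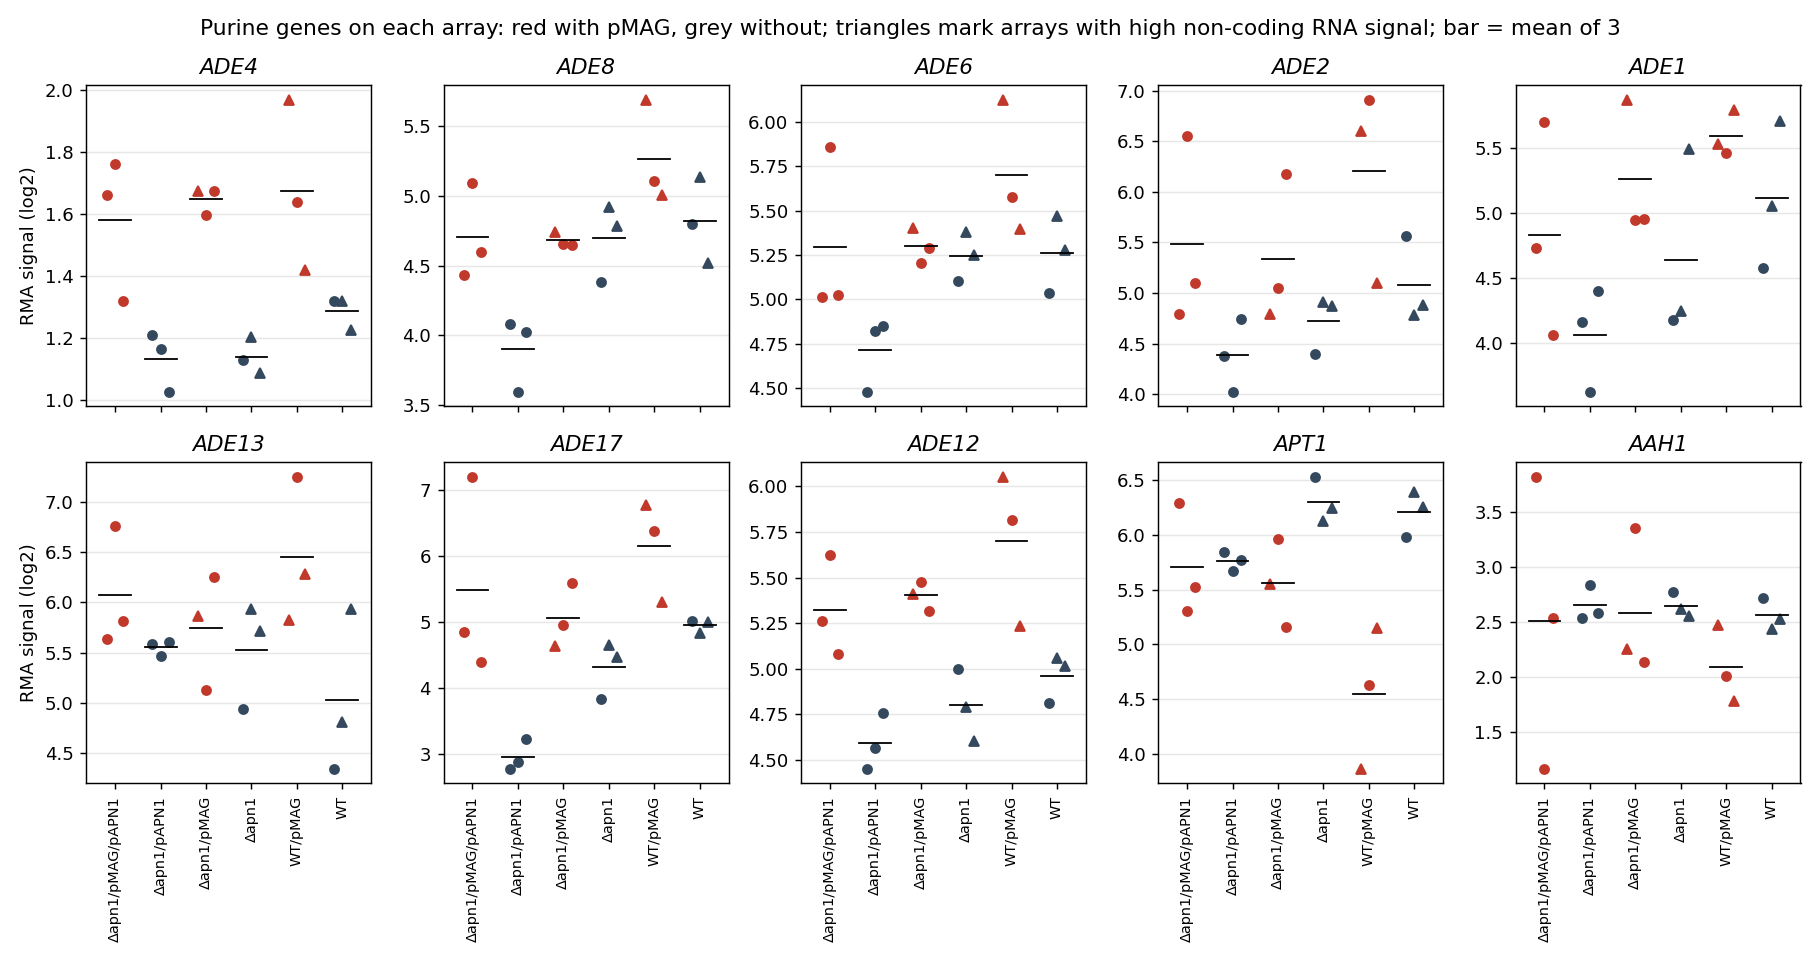
RMA signal on the log2 scale (y axis, a separate scale for each gene) of the 10 genes on each array, by strain (x axis), with red for strains with p*MAG*, grey for those without, triangles for the 7 arrays of the high non-coding RNA group and bars for the mean of 3. *ADE12* and *ADE4* are higher on every p*MAG* array than in the paired strain without it, and *ADE17* lies lowest in Δ*apn1*/p*APN1*.

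Against wild type, WT/p*MAG* had 4 of the 10 genes higher past the study's thresholds, where 2.14% of all probe sets were, and 1 lower, where 3.86% were. Those higher were *ADE13* by 1.42 (SE 0.45), *ADE17* by 1.20 (SE 0.55), *ADE2* by 1.13 (SE 0.50) and *ADE12* by 0.74 (SE 0.19) on the log2 scale. *APT1* differed by -1.66 (SE 0.30). None of the 10 passed the adjusted test here, with *APT1* nearest at an adjusted p of 0.0562 by limma, while 6 had an unadjusted p under 0.05. On all 3 arrays WT/p*MAG* lay above all 3 of wild type for *ADE4*, *ADE17* and *ADE12*, 3 of the 10 genes, where 6.32% of probe sets did. *ADE13* read 5.82, 7.25 and 6.28 in WT/p*MAG*, against 4.34, 4.81 and 5.93 in wild type, and *ADE2* read 6.60, 6.91 and 5.10, against 5.57, 4.78 and 4.88, so 1 array overlapped for each gene. The *ADE2* and *ADE17* calls were lost without replicate 1 or 2 of WT/p*MAG* or replicate 2 or 3 of wild type, that of *ADE17* also without replicate 1 of wild type, and that of *ADE12* without replicate 1 of WT/p*MAG*. The count was 2 without replicate 1 of WT/p*MAG*, and 3 without its replicate 2 or without replicate 3 of wild type.

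The deletion of *apn1* alone moved none of the 10 genes past the study's thresholds, where 0.431% of all probe sets passed in either direction. No gene of the 10 had an unadjusted p under 0.05 or passed limma's adjusted test in Δ*apn1* against wild type. The differences ran from -0.63 (95% interval -1.81 to 0.55) for *ADE17* to 0.50 (95% interval -0.45 to 1.46) for *ADE13*. These intervals leave room for changes of more than 1.5-fold in either direction for *ADE2* and *AAH1*. Without replicate 3 of wild type 1 gene passed the study's thresholds.

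Δ*apn1*/p*APN1* had the lowest mean of the 6 strains for 7 of the 8 *ADE* genes, with *ADE13* the exception. Against wild type, 3 of the 10 genes were lower past the study's thresholds, where 0.800% of all probe sets were, and none higher. *ADE17* differed by -1.99 (SE 0.55, adjusted p = 0.428), *ADE1* by -1.05 (SE 0.43, adjusted p = 0.679) and *ADE8* by -0.92 (SE 0.23, adjusted p = 0.276), so no call held after limma's adjustment, and 4 of the 10 had an unadjusted p under 0.05. *ADE8* read 4.08, 3.60 and 4.02 in Δ*apn1*/p*APN1*, against 4.80, 5.14 and 4.52 in wild type. *ADE1* read 4.16, 3.63 and 4.40, against 4.57, 5.06 and 5.70 in wild type. All 3 arrays of Δ*apn1*/p*APN1* lay below all 3 of wild type for *ADE4*, *ADE8*, *ADE6*, *ADE2*, *ADE1*, *ADE17*, *ADE12* and *APT1*, 8 of the 10 genes, where 5.35% of probe sets did. The call for *ADE1* was lost without replicate 2 of Δ*apn1*/p*APN1* or replicate 3 of wild type, and with the array group as a block. Of wild type, 2 arrays lay in the high group and 1 in the low group, and all 3 of Δ*apn1*/p*APN1* in the low group. *ADE17* and *ADE8* kept their calls with the block, and within the low group, with the 1 wild type array assumed to vary like the other strains, only *ADE8* kept its call.

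Set against Δ*apn1*, the strain with p*APN1* differed by -1.35 (SE 0.55) for *ADE17* and -0.80 (SE 0.23) for *ADE8*. These were 2 of the 10 genes lower past the study's thresholds, where 0.431% of all probe sets were, and neither passed the adjusted test (adjusted p = 0.969 for each by limma). *ADE8* read 4.38, 4.92 and 4.79 in Δ*apn1*, above all 3 arrays with the plasmid. The *ADE17* call was lost without replicate 1 or 2 of Δ*apn1*/p*APN1* or replicate 2 or 3 of Δ*apn1*, and both calls were lost within the low group, where Δ*apn1* has 1 array, assumed to vary like the other strains. In strains with p*MAG*, the null with both plasmids against Δ*apn1*/p*MAG*, none of the 10 passed, where 1.68% did in either direction, and none had an unadjusted p under 0.05. There *ADE17* differed by 0.42 (95% interval -0.76 to 1.60) and *ADE8* by 0.03 (95% interval -0.46 to 0.51). As the mean of these 2 differences, p*APN1* moved none of the 10 past the study's thresholds, where 0.846% of probe sets passed in either direction, and *ADE8* alone had an unadjusted p under 0.05, with a difference of -0.38 (SE 0.16, adjusted p = 0.867). Without replicate 2 of the null with both plasmids the count was 2. On replicate 1 of that strain *APN1* read 4.57, against 3.64 to 4.38 in Δ*apn1*/p*MAG*. *LEU2* read 5.94 on that array, against 4.38 to 6.21 in Δ*apn1*/p*MAG*. Both signals thus lay near those without p*APN1*, which limits the comparison with Δ*apn1*/p*MAG* and the mean.

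The null with both plasmids minus Δ*apn1*/p*APN1* gave the largest p*MAG* difference of *ADE17*, 2.52 (SE 0.55; 95% interval 1.34 to 3.70; adjusted p = 0.347), or 5.74-fold. *ADE2* differed by 1.10 (SE 0.50), *ADE8* by 0.80 (SE 0.23) and *ADE12* by 0.73 (SE 0.19). These were 4 of the 10 genes higher past the study's thresholds, where 1.23% of all probe sets were, and none of the 10 passed limma's adjusted test, while 6 had an unadjusted p under 0.05. All 3 arrays of the null with both plasmids lay above all 3 of Δ*apn1*/p*APN1* for 7 of the 10 genes, where 6.84% of probe sets did. They were *ADE4*, *ADE8*, *ADE6*, *ADE2*, *ADE13*, *ADE17* and *ADE12*. Replicate 2 of the null with both plasmids stood above the other arrays of its strain for all 8 *ADE* genes. Without it the count was 2, the difference of *ADE17* was 1.66, and the calls of *ADE2* and *ADE12* were lost.

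Δ*apn1*/p*MAG* against Δ*apn1* gave *ADE12* higher by 0.60 (SE 0.19, adjusted p = 0.390), 1 of the 10 genes, where 2.29% of all probe sets were higher past the study's thresholds. *APT1* differed by -0.74 (SE 0.30, adjusted p = 0.521), 1 of the 10 genes lower, where 1.52% were. Neither passed limma's adjusted test, and 3 of the 10 had an unadjusted p under 0.05. *ADE4* was the third of these at 0.51 (SE 0.14), under 1.5-fold. The *APT1* call was lost without replicate 1 of Δ*apn1* or replicate 1 or 3 of Δ*apn1*/p*MAG*, and that of *ADE12* without replicate 3 of Δ*apn1* or replicate 2 of Δ*apn1*/p*MAG*. *ADE8* differed by -0.02 (95% interval -0.50 to 0.47), the 1 *ADE* gene below 0 in this pair.

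Each of the other strains with p*MAG* had 1 gene past the study's thresholds against wild type. In Δ*apn1*/p*MAG* against wild type, 1 of the 10 genes was lower past the study's thresholds, *APT1* at -0.65 (SE 0.30, adjusted p = 0.707), where 1.35% of all probe sets were. That call was lost without replicate 1 or 3 of Δ*apn1*/p*MAG* or replicate 2 or 3 of wild type. In the null with both plasmids against wild type 1 gene was higher, *ADE13* at 1.04 (SE 0.45, adjusted p = 0.625), where 1.81% were, and it was lost without replicate 2 of the null with both plasmids or replicate 1 or 2 of wild type. *ADE13* read 5.64, 6.76 and 5.81 in the null with both plasmids, against 4.34, 4.81 and 5.93 in wild type, so the groups overlapped. These comparisons with wild type share its 3 arrays.

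**Figure D3:**
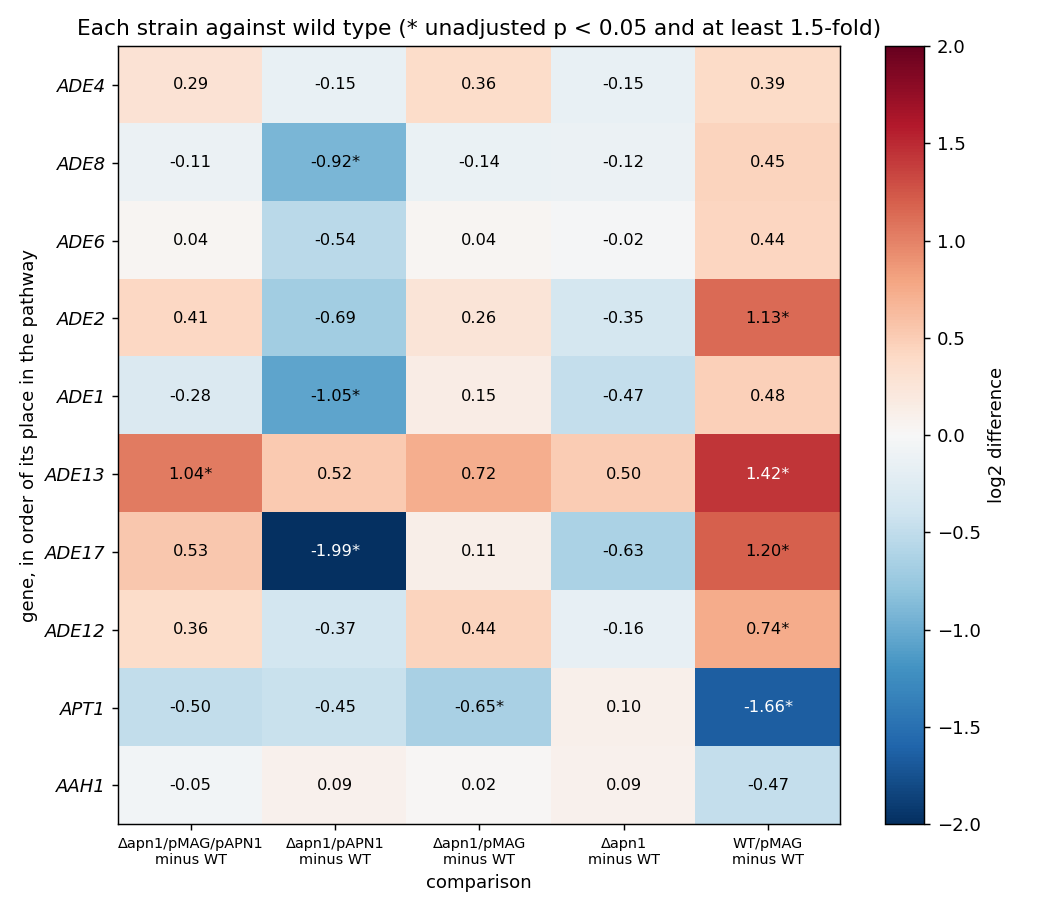
Difference of each strain from wild type on the log2 scale, as colour and printed value, for the 10 genes in pathway order (rows) and the 5 strains (columns), with a star for an unadjusted p under 0.05 and at least 1.5-fold. *ADE17* runs from -1.99 in Δ*apn1*/p*APN1* to 1.20 in WT/p*MAG*, and *APT1* is lowest in WT/p*MAG* at -1.66.

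Whether the p*MAG* effect differed between hosts was tested as an interaction. Between wild type and Δ*apn1* the effect on *APT1* differed by -0.91 (SE 0.43; 95% interval -1.82 to -0.01). Between Δ*apn1*/p*APN1* and Δ*apn1* the effect on *ADE17* differed by 1.78 (SE 0.78; 95% interval 0.11 to 3.44) and that on *ADE8* by 0.82 (SE 0.32). None passed limma's adjustment (adjusted p = 0.998 for each), so that a dependence on the host was not shown for any of the 10 genes. Without replicate 2 of the null with both plasmids the *ADE17* value was 0.92. Over all 6 strains by limma's moderated F test, *ADE12* had an adjusted p of 0.0622, *APT1* 0.0894, *ADE17* 0.115, *ADE8* 0.131 and *ADE4* 0.176, and none of the 10 passed 0.05, while 8 had an unadjusted p under 0.05. The share of all probe sets under 0.05 by this test was not counted, so those 8 have no background to be set against.

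The 7 genes on the route to IMP, *ADE4*, *ADE8*, *ADE6*, *ADE2*, *ADE1*, *ADE13* and *ADE17*, were also averaged on each array, as deviations from each gene's mean over the 18 arrays. This mean was -0.13, 0.99 and -0.24 on the arrays of the null with both plasmids, against -0.76, -0.92 and -0.59 in Δ*apn1*/p*APN1*. It was 0.14, -0.07 and 0.37 in Δ*apn1*/p*MAG*, against -0.58, -0.11 and -0.05 in Δ*apn1*. It was 0.93, 0.90 and 0.33 in WT/p*MAG*, against -0.19, -0.09 and 0.08 in wild type. The highest arrays were thus replicate 2 of the null with both plasmids and replicates 1 and 2 of WT/p*MAG*, and the 3 lowest were those of Δ*apn1*/p*APN1*, with replicate 1 of Δ*apn1* next.

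Across the 18 arrays, which share RMA normalization and the strain differences above, the genes of the route moved together to unequal degrees. Pairs of the 7 correlated at 0.266 to 0.892, with a median of 0.682 over 21 pairs, and at -0.0277 to 0.851, with a median of 0.479, once each strain's mean was removed. *ADE17* followed the mean of the 7 most closely, at 0.969, and *ADE13* least, at 0.644, each being part of that mean. *ADE12*, outside it, correlated with it at 0.858, *APT1* at -0.67 and *AAH1* at -0.566. *APT1* correlated with each of the 8 *ADE* genes at -0.744 to -0.355. With strain means removed these were -0.726 to -0.0035, with *ADE1* nearest 0, and *ADE12* correlated with the mean of the 7 at 0.551.

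**Figure D4:**
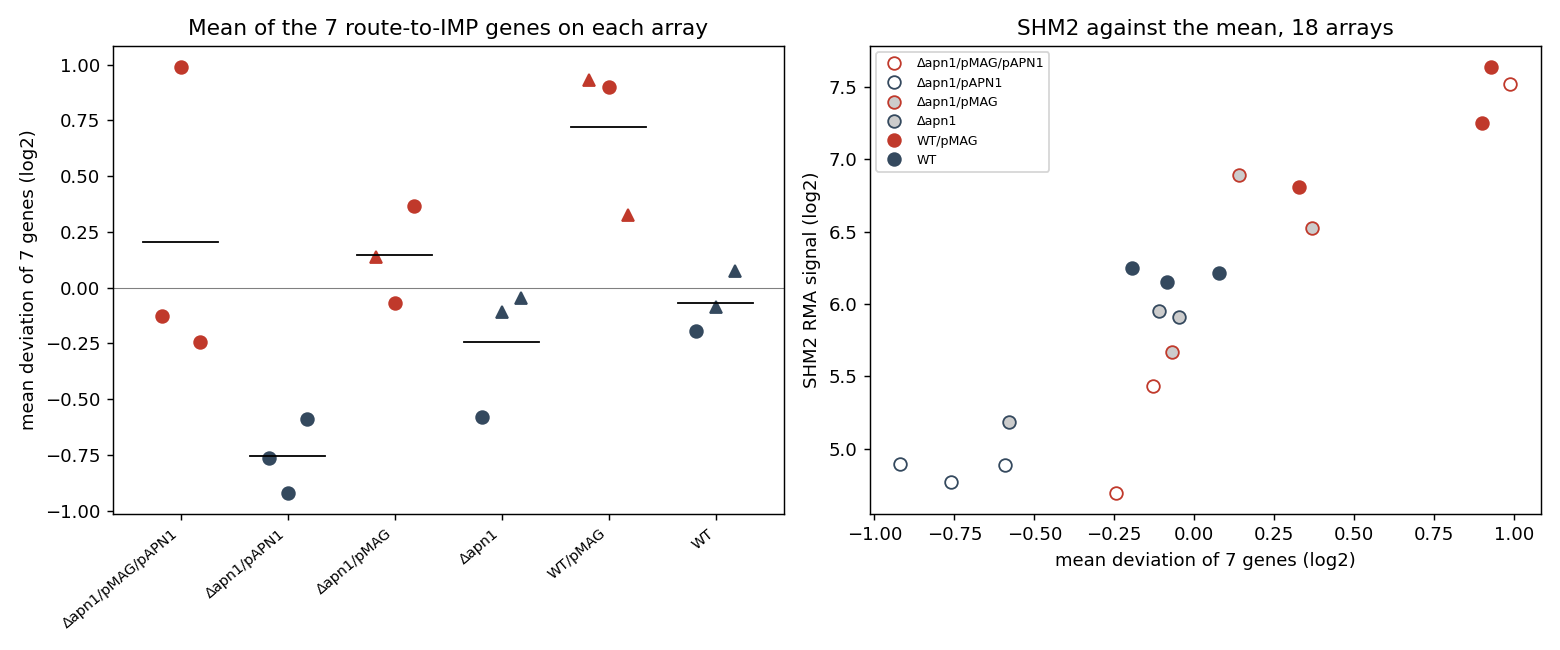
Left, mean deviation of the 7 route-to-IMP genes on each array (y axis, log2) by strain (x axis), with red for p*MAG*, grey without, triangles for the high non-coding RNA group and bars for strain means; right, the *SHM2* signal (y axis, log2) against that mean (x axis) on the 18 arrays. Replicate 2 of the null with both plasmids reaches 0.99 while its other arrays lie below 0, and *SHM2* rises with the mean at a correlation of 0.925.

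Of 38 other genes of purine metabolism and its regulation, 36 had a probe set that carried their symbol alone, and *ADE5,7* and *IMD1* were not analysed here. Whether such a probe set also reads related genes was not tested. For the mean p*MAG* difference 3 of the 36 rose at an adjusted p under 0.05, where 0.830% of all probe sets did, and none fell, where 0.446% did. All 3 belong to histidine synthesis and to the 10 listed further targets of Bas1 and Pho2. Whether these or other factors brought about the rise was not tested. *HIS4* rose by 0.99 (SE 0.18, adjusted p = 0.0105 by limma), *HIS7*, the glutamine amidotransferase that releases AICAR, by 0.54 (SE 0.11, adjusted p = 0.0202), and *HIS5* by 0.38 (SE 0.080, adjusted p = 0.0325). All 10 of these targets had a mean difference above 0, as did 50.5% of all probe sets, with a median of 0.59. *SHM2*, the cytosolic serine hydroxymethyltransferase, had 0.91 (SE 0.30, adjusted p = 0.155), *GCV1* and *GCV3* of the glycine cleavage system 0.75 (SE 0.22) and 0.69 (SE 0.24), and *GLN1*, glutamine synthetase, 0.64 (SE 0.26). *GCV1* read 1.07 to 2.97, on many arrays at or below the array median, and like *ADE4* was not shown to be above background. The regulators themselves did not pass in any comparison. The GMP branch, salvage and interconversion, and PRPP synthesis lists had medians of -0.17, -0.08 and 0.02, and none of their genes passed either rule for the mean.

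*HIS4*, a multifunctional enzyme of histidine synthesis with the smallest adjusted p of these targets, was separated in all 3 pairs. It read 8.13, 8.40 and 8.78 in the null with both plasmids, against 7.42, 7.27 and 7.32 in Δ*apn1*/p*APN1*. It read 8.09, 8.40 and 8.69 in Δ*apn1*/p*MAG*, against 7.97, 7.71 and 7.87 in Δ*apn1*, and 8.77, 9.37 and 8.30 in WT/p*MAG*, against 6.71, 8.04 and 7.71 in wild type. No pair overlapped, and *HIS7* did not overlap in any of the 3 pairs either. *GCV1*, *GCV3*, *GLN1* and *HIS1* overlapped in WT/p*MAG* against wild type. The share of all probe sets separated in all 3 pairs was not counted. *SHM2* read 7.64, 7.25 and 6.81 in WT/p*MAG* against 6.25, 6.15 and 6.22 in wild type, and 5.43, 7.52 and 4.70 in the null with both plasmids against 4.77, 4.89 and 4.88 in Δ*apn1*/p*APN1*. In the second pair replicate 3 with p*MAG* lay below all 3 arrays without it. In Δ*apn1*/p*APN1* against wild type *SHM2* differed by -1.36 (SE 0.52, adjusted p = 0.632), and *HPT1*, the hypoxanthine and guanine phosphoribosyltransferase, by -0.76 (SE 0.32, adjusted p = 0.679), the 2 of the 36 lower past the study's thresholds there, where 0.800% of all probe sets were.

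In WT/p*MAG* against wild type 4 of the 36 genes were higher and 4 lower past the study's thresholds, where 2.14% and 3.86% of all probe sets were, and none passed limma's adjusted test. The higher ones were *HIS4* by 1.33, *GCV1* by 0.92, *HIS7* by 0.66 and *ADE3*, the C1-tetrahydrofolate synthase, by 0.62. The lower ones were *ADO1* at -2.95, *IMD4* at -2.04, *FCY2* at -1.07 and *XPT1* at -0.83, which serve adenosine phosphorylation, the step from IMP towards GMP, purine uptake and xanthine salvage. *FCY2* read 5.10, 4.59 and 4.50 in WT/p*MAG*, against 5.995, 5.54 and 5.88 in wild type, with no overlap. *ADO1* read 3.97, 5.65 and 9.02, against 8.65, 9.37 and 9.45 in wild type, and *IMD4* 3.02, 6.34 and 6.39, against 7.17, 7.27 and 7.42. The lowest *IMD4* value was that of replicate 1, and for *ADO1* replicates 1 and 2 were low while replicate 3 lay within the wild type range.

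**Figure D5:**
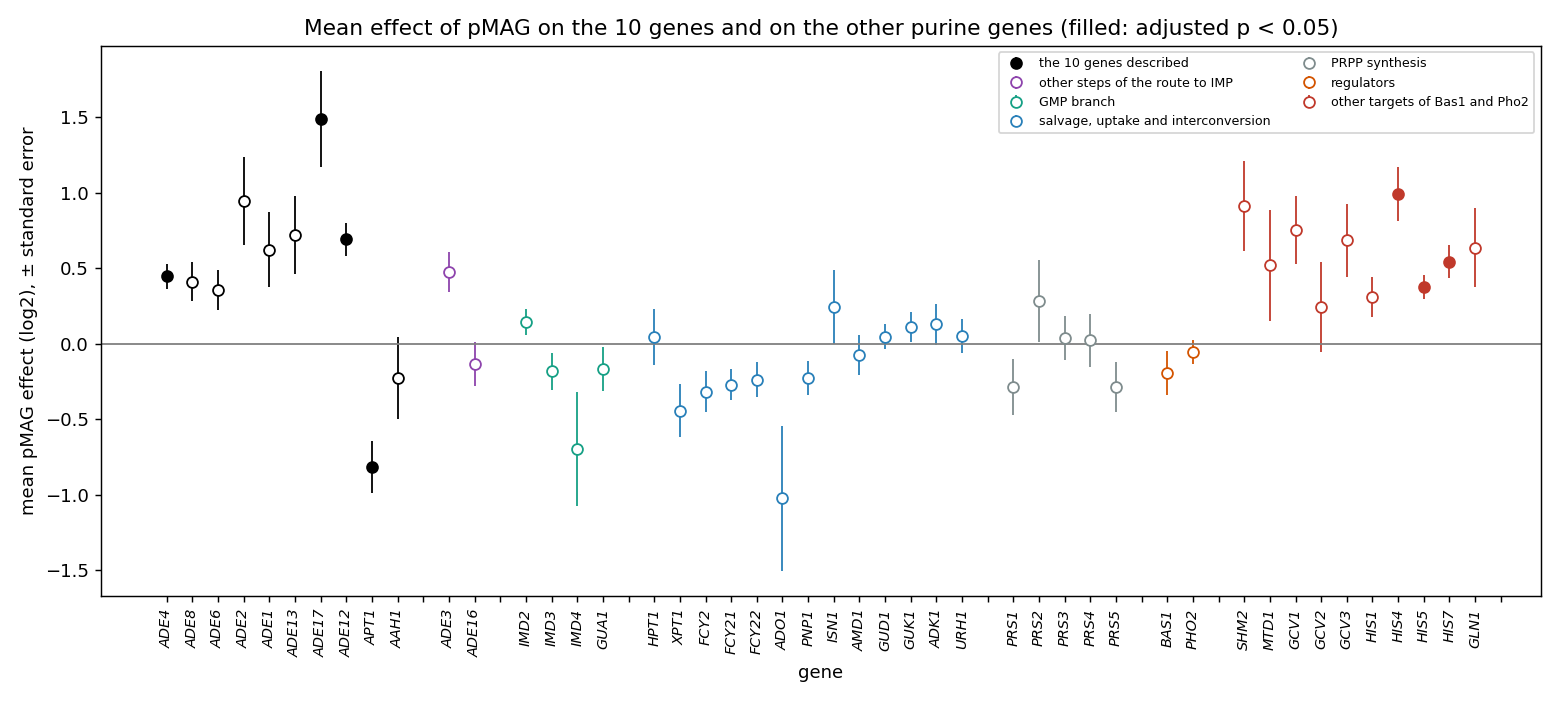
Mean effect of p*MAG* on the log2 scale with its standard error (y axis) for the 10 genes and 36 other purine genes by list (x axis, colours), filled where the adjusted p is under 0.05. Filled points are *ADE4*, *ADE17*, *ADE12*, *HIS4*, *HIS5* and *HIS7* above 0 and *APT1* below 0.

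By correlation with the mean of the 7 route genes over the 18 arrays, *SHM2* at 0.925, *ADE3* at 0.867, *GCV1* at 0.858 and *MTD1*, a methylenetetrahydrofolate dehydrogenase, at 0.827 came highest among the 36 other purine genes. *HIS4* correlated at 0.703, and at 0.201 with the strain means removed. Outside the lists the 10 most alike probe sets were *CEM1* at 0.929, *HEF3* at 0.827, *SOL4* at 0.826, *CIR1* at 0.807, *SER1* at 0.794, *BTN2* at 0.777, *GLO1* at 0.771, *HSP42* at 0.765, *VIR1* at 0.764 and *HSP12* at 0.758. With strain means removed *CEM1* still correlated at 0.906 and *HSP12* at 0.248. Some of these signals were dim, with *VIR1* at 1.37 to 2.15, *HEF3* at 1.5 to 2.58, *CEM1* at 1.54 to 3.59 and *BTN2* at 1.4 to 3.63 over the arrays. *SER1* encodes a transaminase of serine synthesis, and *HSP42* and *HSP12* are heat shock genes.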

How the data were processed

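The arrays were Affymetrix Yeast Genome S98, with 3 for each of 6 strains, 1 per biological replicate. The authors scanned the arrays and processed them with RMA, which corrects background, normalizes quantiles and summarizes probes, and the deposited values are on the log2 scale, 9335 probe sets by 18 arrays. Which release of RMA was used is not given in the sources used here. The number of arrays limits the precision. Control probe sets (60) and those with several symbols (328) or none in the annotation used (2443) were left out.

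lmFit and eBayes of limma 3.58.1 (R 4.3.3) took in the 18 arrays together, 1 coefficient for each strain, with 12 residual and 2.89 prior degrees of freedom, and two-sided p-values were adjusted by Benjamini-Hochberg over 6504 probe sets, threshold 0.05. The study's thresholds, an unadjusted p under 0.05 and 1.5-fold, were applied to the same fit. Of genes with several probe sets, the one with the highest mean was used. The script was tested on simulated data. The members, the gene lists and the named genes (all members, and listed genes past a threshold) were chosen with earlier results of these data known. Alternatives were the methods' test with each probe set's own variance, only the strains compared, a replicate block, repeated quantile normalization, centring on array medians, leaving out the dimmest share of 0.25, array weights, trend and robust, all probe sets, the array group as a block or alone, and leaving out each replicate. Leaving out 2 doubted arrays together was added after seeing the data. By deviations from strain means, equal replicate numbers went together in Δ*apn1* and wild type (lowest correlation 0.331) and in no other pair of strains. With the array group removed the lowest correlation there was 0.0279, and Δ*apn1*/p*MAG* with Δ*apn1* (0.168), Δ*apn1*/p*MAG* with wild type (0.127) and WT/p*MAG* with Δ*apn1* (0.108) were over 0.1 instead, so whether the numbers pair strains depends on the array group. Promoter sequences were not analysed here.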

Additional observations from a re-analysis of the deposited data

How the results depend on the processing

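Under the alternatives, all 612 values of single genes kept their direction. These were the mean p*MAG* differences and the differences between strains already past the study's thresholds. Other differences between strains, including those near 0, were not followed, so whether they would reverse was not tested. Of 508 counts, 446 stayed within 1.5 times. For most comparisons the adjusted count was 0 from the start and could not fall, so this share says little about stability. Where a count moved by more, the cause was not tested. Strains with 1 array in an array group (WT/p*MAG*, Δ*apn1* and wild type in the low group, Δ*apn1*/p*MAG* in the high group) are assumed there to vary like the others, so each comparison of WT/p*MAG* with wild type in the low group is of 1 array with 1 array. The 4 genes at an adjusted p under 0.05 for the mean p*MAG* effect became 2 by the methods' test, where 59 of 6504 probe sets passed, and 0 in the low array group, where 0 of 6504 did, and 2 to 5 without single arrays. *ADE4* and *ADE12* lost their call only in the low array group, *ADE17* and *APT1* in 13 of 29 alternatives each. Under the replicate block the adjusted p of *APT1* was 0.0563, and the calls of the other genes stayed.

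For WT/p*MAG* minus wild type the count past the study's thresholds was 5, became 3 by the methods' test and in the low array group, 2 in the high array group, and 2 to 6 without single arrays. The adjusted count, 0, became 1 with dim probe sets left out, array weights, or trend and robust, and 0 to 2 without single arrays. For Δ*apn1* minus wild type the count of 0 became 1 with only the strains compared, and 0 to 1 without single arrays. For Δ*apn1*/p*MAG* minus wild type the count of 1 became 0 by the methods' test, the replicate block, repeated quantile normalization, trend and robust, the array group block, the high array group and without both doubted arrays, and 0 to 1 without single arrays. For Δ*apn1*/p*APN1* minus wild type the adjusted count of 0 became 1 with only the strains compared. For Δ*apn1*/p*MAG*/p*APN1* minus wild type the count of 1 became 0 by the methods' test, only the strains compared and array weights, 2 without both doubted arrays, and 0 to 2 without single arrays.

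For Δ*apn1*/p*MAG* minus Δ*apn1* the count of 2 became 1 with centring, 0 in either array group, and 1 to 2 without single arrays. For p*MAG* beside p*APN1* the count of 4 ran from 2 to 6 without single arrays. For Δ*apn1*/p*APN1* minus Δ*apn1* the count of 2 became 0 in the low array group, and 1 to 3 without single arrays. For p*APN1* beside p*MAG* the count of 0 became 1 without both doubted arrays. For the mean p*APN1* effect the count of 0 became 1 with array weights, and 0 to 2 without single arrays. For the difference among the 6 strains the adjusted count of 0 became 1 with repeated quantile normalization, 5 with array weights, and 0 to 2 without single arrays. Over all probe sets, the mean p*MAG* effect had 83 calls, against 351 with array weights, 142 with the array group block and 82 with the replicate block. With 3 arrays a strain, and *ADE4* near the array medians, small changes were not detectable.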
